A study of Mus musculus with 2 samples.

Results

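The genes described here make, store and release triglyceride in the liver cell. They are 41 genes of fatty acid synthesis, desaturation and elongation, fatty acid uptake and activation, esterification to triglyceride, the coat of the lipid droplet and lipolysis, out of 18193 genes that the arrays name. They were chosen by symbol, and all 41 had at least 1 probe set on the array, the group of short probes that is summarised as 1 value for a transcript. Liver RNA was compared between Yap+/+ mice and Yap+/- mice, which are heterozygous for Yap, at postnatal day 30, all untreated and on a C57BL/6 background. Livers of 5 mice per genotype were pooled, and each pool was read on 1 array. The nature of the Yap allele, the sex of the mice, their feeding state and the time of day at sacrifice were not stated. With 1 pool per genotype there is no replicate, so no difference was tested and no value below has an error.

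Fatty acids are built in the cytosol from citrate that leaves the mitochondrion, then lengthened and desaturated at the endoplasmic reticulum, and joined to glycerol as triglyceride. The triglyceride is exported in lipoproteins or kept in droplets, whose surface proteins control the access of lipases. In liver, the transcription factors SREBP-1c, activated by insulin, and ChREBP, activated by sugar, drive the synthetic genes, whereas several droplet and lipase genes respond to PPAR-alpha in fasting.

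Values are log2 probe set values, so a difference of 1 is 2-fold, and every difference is Yap+/- minus Yap+/+. The brightest probe set stands for a gene, and a gene with a mean of at least 6 over both arrays is called measured. There were 9299 measured genes in all and 36 measured members. Because probes differ in how brightly they bind, the level of a gene is compared between pools and not with that of another gene. The brightest pairs of probe sets of 3406 genes disagreed by 0.17 (robust SD) in the difference they gave, which is used below as a scale for noise within this pair of arrays. It says nothing of the spread between mice. Yap1 itself read 9.40 in Yap+/+ and 9.24 in Yap+/-, a difference of -0.15, and its dimmer probe set differed by -0.24. The ratio of 3-prime to 5-prime signal of control transcripts, a sign of RNA or labelling quality, was higher in Yap+/-, with log2 differences of 0.20 (beta-actin), 0.22 (Gapdh) and 0.21 (pyruvate carboxylase). Its part in the differences below was not tested.

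The lipid genes as a whole differed little between the pools. Every measured gene of fatty acid synthesis was slightly lower in Yap+/-, as were both transcription factors, and every measured droplet coat gene was slightly higher, mostly by less than the disagreement of probe sets. The other roles held genes of both directions. The largest differences of single members were a lower Cd36, a fatty acid receptor, and a higher G0s2 and Plin5, which encode proteins that restrain lipolysis at the droplet. Over the 36 measured members the median difference was -0.04, against 0.00 over all measured genes, with 23 members lower and 13 higher. The share of members that were lower was 63.9%, beside 49.6% of all measured genes that were lower and 48.8% that were higher. At least 1.5-fold lower was 1 member, Cd36, where 0.645% of all measured genes were, and at least 1.5-fold higher was 1 member, G0s2, where 0.699% were. Both directions together, that is 2 of the 36 members, or 5.56%. No member differed by 2-fold, the threshold passed by 0.226% of measured genes on the lower side and 0.0968% on the higher side. Differences of 0.32 or more in either direction occurred in 6 members, or 16.7%, and in 7.04% of measured genes. Those 6 were Cd36, Elovl3 and Scd2 on the lower side and G0s2, Plin5 and Elovl2 on the higher. Of the 36 members, 13 lay further from 0 than 0.17, which is 36.1% of them beside 26.1% of all measured genes.

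**Figure D1:**
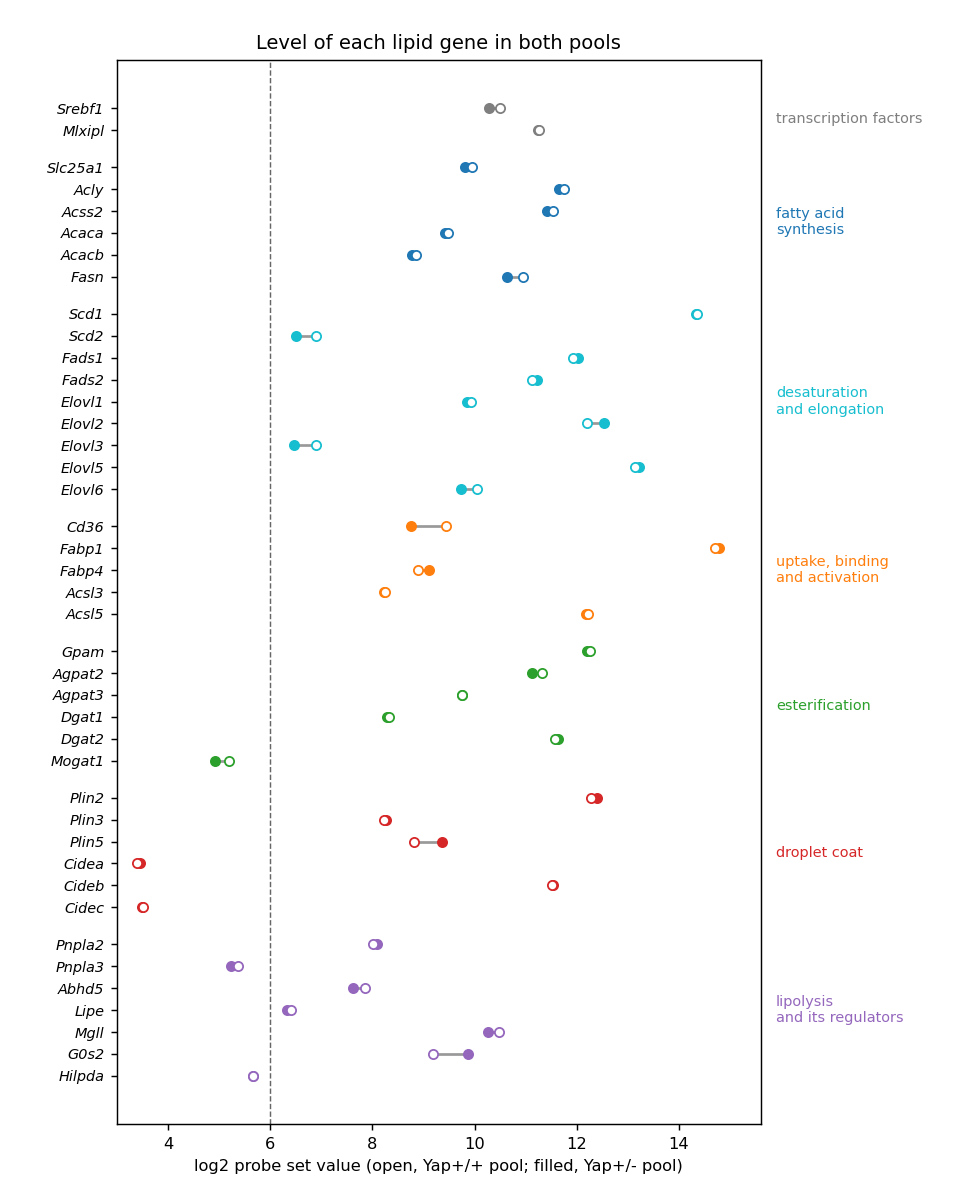
Level of each of the 41 lipid genes in the Yap+/+ pool (open circles) and the Yap+/- pool (filled circles), as the log2 value of the brightest probe set, grouped by role; the dashed line marks the minimum mean of 6. The pairs of circles nearly coincide for most genes, and the widest gaps are those of Cd36 (9.45 and 8.75), G0s2 (9.19 and 9.87) and Plin5 (8.81 and 9.37).

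The transcription factors of lipogenesis differed little. Srebf1, which encodes SREBP-1, read 10.50 in Yap+/+ and 10.29 in Yap+/-, a difference of -0.21. Its single probe set does not separate the SREBP-1c form from SREBP-1a here, since the position of the probes is not used. Mlxipl, which encodes ChREBP, read 11.26 and 11.24, a difference of -0.01. Of the pair, only Srebf1 was beyond 0.17, and 18.8% of measured genes differed as much as Srebf1 in either direction.

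Fatty acid synthesis was the only role besides the transcription factors in which all measured members were lower in Yap+/-. The 6 genes had differences between -0.30 and -0.06, with a median of -0.11, and none reached 0.32. Fasn, the fatty acid synthase that assembles palmitate, read 10.94 in Yap+/+ against 10.64 in Yap+/-. It was 1.23-fold lower and the only one of the 6 beyond 0.17. A difference of that size or more was found in 8.43% of measured genes. Slc25a1, the mitochondrial citrate exporter, read 9.95 and 9.82. Acly, which splits citrate into acetyl-CoA, read 11.75 and 11.66 on its brightest probe set. Acss2 makes acetyl-CoA from acetate instead, and read 11.54 and 11.41. The acetyl-CoA carboxylases make malonyl-CoA, Acaca in the cytosol for synthesis and Acacb at the mitochondrion, where malonyl-CoA restrains fatty acid oxidation. Acaca read 9.49 in Yap+/+ and 9.43 in Yap+/-, and Acacb read 8.86 and 8.77.

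The other probe sets of these genes went the same way where they were measured. All 9 measured probe sets of the 6 genes were lower in Yap+/-. The dimmer measured ones of Acly differed by -0.14 and -0.64, and that of Acss2 by -0.33. The dimmest of these Acly probe sets, at 8.68 and 8.04, gave a far larger difference than the other measured probe sets of the gene, and the size for Acly is uncertain to that extent. Acacb had another probe set near background, at 4.01 and 4.27, which differed by 0.26 in the opposite direction.

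The promoters of all members, whatever their direction, were searched for motifs of factors that act on lipid genes. RefSeq promoters of GRCm38.p6, from 250 bases before to 50 after the annotated start, were at hand for 33 of the 41 genes. The NF-Y box CCAAT, which NF-Y binds beside SREBP sites in lipogenic promoters, was found on either strand in 18 of the 33, or 54.5%, and in 41.1% of all 27025 genes with a promoter and 42.8% of the measured ones. The E-box CACGTG was found in 6, or 18.2%, beside 8.09% of all and 12.2% of measured genes. The sterol regulatory element TCACNCCAC was found in the Mlxipl promoter alone, that is in 3.03% of the 33 and 1.44% of all. The carbohydrate response element, a pair of E-box-like sites that can overlap an E-box, was found in 0 of the 33 and 0.426% of all. The nuclear receptor motifs direct repeat 1 and direct repeat 4, layouts bound by PPAR and by LXR with RXR, were found in 0 of the 33, beside 0.0481% and 0.0148% of all. These matches describe letters within 300 bases, and binding was not measured. Shown next, 5-prime to 3-prime on the gene's strand, are the 250 bases before the start of 3 genes of fatty acid synthesis with an NF-Y box in that stretch, which lies in capitals as CCAAT or, on the other strand, ATTGG. They are at chr16:17928220-17928469 on the minus strand for Slc25a1, chr2:155517793-155518042 on the plus strand for Acss2 and chr11:120824548-120824797 on the minus strand for Fasn.
Slc25a1: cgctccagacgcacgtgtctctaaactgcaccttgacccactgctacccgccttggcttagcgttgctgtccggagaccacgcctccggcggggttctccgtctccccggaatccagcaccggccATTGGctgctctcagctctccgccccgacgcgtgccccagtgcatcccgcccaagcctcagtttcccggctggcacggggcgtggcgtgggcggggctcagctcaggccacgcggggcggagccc
Acss2: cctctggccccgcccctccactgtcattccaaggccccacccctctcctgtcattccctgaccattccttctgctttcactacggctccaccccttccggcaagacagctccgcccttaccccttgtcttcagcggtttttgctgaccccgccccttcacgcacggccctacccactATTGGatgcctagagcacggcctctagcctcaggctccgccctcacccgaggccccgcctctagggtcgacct
Fasn: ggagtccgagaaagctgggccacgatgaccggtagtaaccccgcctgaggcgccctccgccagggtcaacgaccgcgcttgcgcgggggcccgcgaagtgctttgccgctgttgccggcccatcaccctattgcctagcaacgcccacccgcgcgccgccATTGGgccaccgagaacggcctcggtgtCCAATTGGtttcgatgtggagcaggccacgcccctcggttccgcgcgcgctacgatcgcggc
Counted back from the start, the box begins at -125 in Slc25a1 and -73 in Acss2. Fasn has 3 of them, beginning at -90, -62 and -59, of which the last pair overlap. Acly and Acacb also had an NF-Y box within the 300 bases searched, and their sequences are not shown.

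Desaturases and elongases went both ways, 5 lower and 4 higher of 9 measured, with a median of -0.03. The elongases and desaturases of polyunsaturated fatty acids were higher in Yap+/-, and those that act on saturated and monounsaturated chains were lower. This sorting by substrate was made after the values were seen. Elovl2, which lengthens very long polyunsaturated chains, read 12.21 in Yap+/+ and 12.54 in Yap+/-, 1.26-fold higher, a size reached by 6.59% of measured genes. Elovl5, which acts earlier on polyunsaturated chains, read 13.15 and 13.22. The delta-5 desaturase Fads1 read 11.92 and 12.03, and the delta-6 desaturase Fads2 read 11.13 and 11.23. Apart from Elovl2 these differences, 0.08 to 0.12, were within 0.17. The other measured probe sets were also higher, by 0.14 for Elovl5, 0.25 for Fads1, and 0.14 and 0.32 for Fads2.

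On the lower side, Elovl3, an elongase of very long saturated and monounsaturated chains, read 6.90 in Yap+/+ and 6.46 in Yap+/-, 1.36-fold lower. Only 3.00% of measured genes differed as much, although its level is close to the minimum of 6. Scd2, a stearoyl-CoA desaturase with a minor role in adult liver, read 6.90 and 6.51, 1.30-fold lower on the only measured one of its 3 probe sets, while the others were near background and differed by 0.04 and -0.07. Scd1, the main hepatic stearoyl-CoA desaturase, read 14.36 and 14.33, near the highest value of the table, 15.2, and its dimmer probe set read 10.45 and 10.24, a difference of -0.22. Elovl6, which lengthens palmitate to stearate, read 10.05 and 9.74, 1.24-fold lower, with -0.20 on its second probe set. Elovl1, an elongase of very long chains, read 9.94 and 9.86, and its other measured probe sets differed by -0.08 and -0.39. On their brightest probe sets Scd1, at -0.03, and Elovl1, at -0.09, were within 0.17. Because Scd2 and Elovl3 lie below 7, the median of the role is 0.08 at a minimum of 7.

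**Figure D2:**
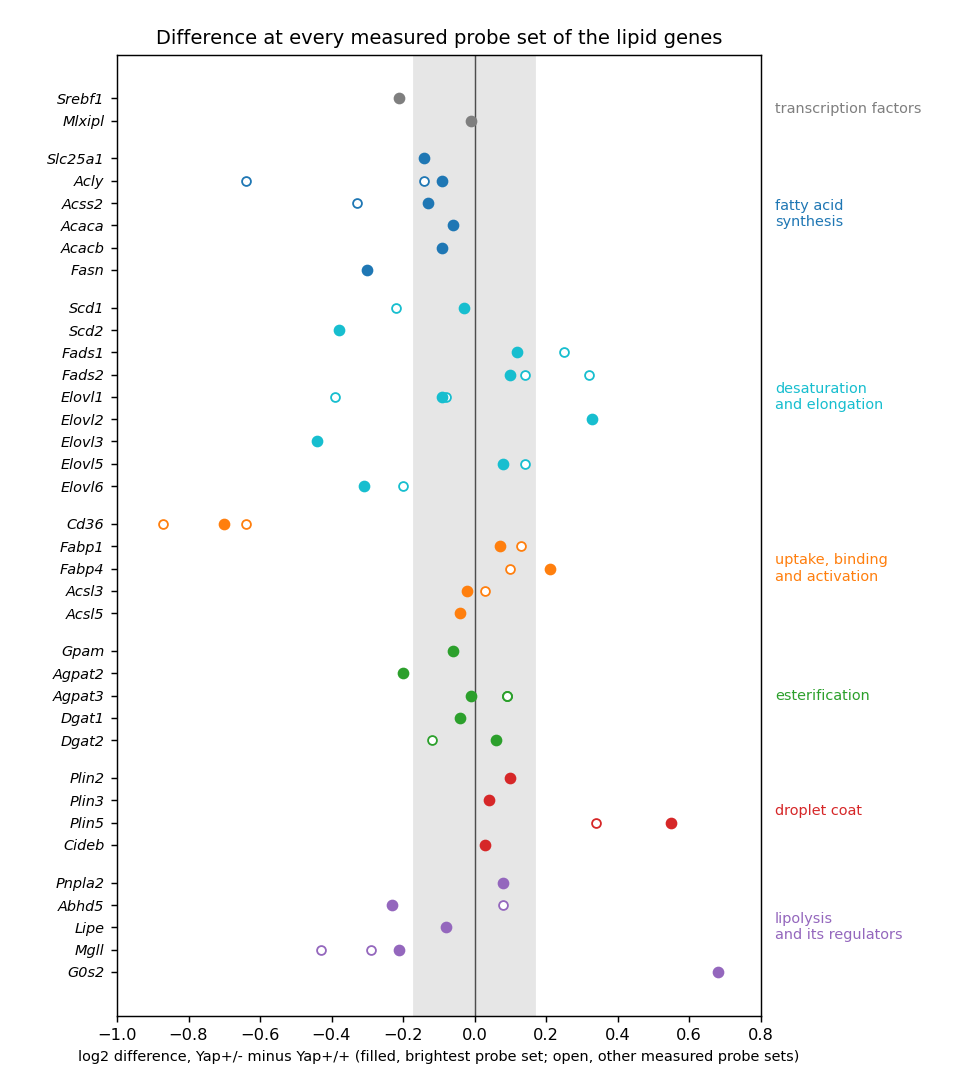
Log2 difference (Yap+/- minus Yap+/+) at every measured probe set of the 36 measured lipid genes, by role; filled points are the brightest probe set, open points the others, and the grey band spans 0.17 on either side of 0. All 9 points of fatty acid synthesis lie left of 0 and all 5 of the droplet coat right of it, and the 3 points of Cd36 lie between -0.87 and -0.64.

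Among genes of fatty acid uptake, binding and activation, Cd36 stood apart from the rest. Cd36, a membrane receptor that takes up long-chain fatty acids, read 9.45 in Yap+/+ and 8.75 in Yap+/-, 1.63-fold lower. Its other probe sets read 9.08 and 8.20, and 7.37 and 6.73, which are differences of -0.87 and -0.64. All 3 were lower, and 0.710% of measured genes differed from 0 as much as the brightest. Cd36 is also expressed by macrophages and capillary endothelium. All 15 macrophage markers were measured and all were higher in Yap+/-, beside 48.8% of all measured genes. The mean level of these markers was 9.11 in Yap+/+ and 9.41 in Yap+/-. Of 12 measured endothelial markers 9 were higher, with means of 8.46 and 8.60. What part these cells had in the lower Cd36 was not tested. In whole liver, fewer cells of a type and less RNA per cell cannot be told apart. The 250 bases before the annotated start of Cd36, at chr5:17835897-17836146 on the minus strand, are shown because it had the largest difference, with an NF-Y box at -195 in capitals.
Cd36: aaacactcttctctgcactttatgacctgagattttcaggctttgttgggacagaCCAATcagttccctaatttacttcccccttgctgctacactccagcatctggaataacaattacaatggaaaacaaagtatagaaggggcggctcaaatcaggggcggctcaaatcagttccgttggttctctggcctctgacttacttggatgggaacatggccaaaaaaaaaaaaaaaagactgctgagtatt

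The intracellular fatty acid binding proteins were higher. Fabp1, the abundant form of hepatocytes, read 14.70 in Yap+/+ and 14.78 in Yap+/-, close to the top of the scale. Fabp4, the form of adipocytes, macrophages and capillary endothelium, read 8.90 and 9.11, and its second probe set differed by 0.10. Its remaining probe sets, both near background, differed by -0.37 and -0.42, so the mean over all 4 was -0.12. Set beside them after their values were seen, the family had 5 measured genes with 8 measured probe sets, and all 8 were higher. Fabp5, the epidermal form, read 11.10 and 11.99, 1.85-fold higher, and 2.12-fold on its second probe set. Fabp2, the intestinal form, read 10.53 and 10.91, and Fabp7, the brain form, 6.93 and 7.09. Macrophage markers were higher in the same pool, with a median of 0.26, and their part in the higher Fabp4 and Fabp5 was not tested. The acyl-CoA synthetases, which activate fatty acids, hardly differed, with Acsl3 at 8.24 and 8.23 and Acsl5 at 12.23 and 12.19.

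The enzymes of esterification also lay near 0, with 4 of 5 measured members lower and a median of -0.04. Agpat2, which adds the second acyl chain, had the largest difference, at 11.32 in Yap+/+ and 11.12 in Yap+/-, or 1.15-fold lower. Gpam, the mitochondrial glycerol-3-phosphate acyltransferase that starts the pathway, read 12.26 and 12.21. Agpat3 read 9.76 in both pools, and its other measured probe sets were each 0.09 higher. The acyltransferases of the last step showed no larger difference, with Dgat1 at 8.32 and 8.28. Dgat2, which esterifies newly made fatty acids, read 11.58 and 11.64 on one probe set and 8.82 and 8.70 on the other, so its direction depends on the probe set. Mogat1, which works from monoacylglycerol, was under the minimum at 5.19 and 4.91. The enzyme between these steps, the phosphatidate phosphatase Lpin1, is no member of the list but had the largest difference of the lipid genes examined here. It read 10.45 and 11.91, 2.76-fold higher, with 2.56-fold on its second probe set.

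All 4 measured genes of the droplet coat were higher in Yap+/-, with a median of 0.07. Plin5, the perilipin of oxidative tissues, which links droplets to mitochondria and holds back the lipase ATGL, read 8.81 in Yap+/+ and 9.37 in Yap+/-, 1.47-fold higher. Its other probe set read 8.17 and 8.51, a difference of 0.34, and 1.56% of measured genes differed as much as the brighter one. Plin2, the main coat protein of hepatocyte droplets, read 12.29 and 12.40. Plin3, which coats small nascent droplets, read 8.23 and 8.27, and Cideb, the hepatocyte member of the CIDE proteins, which also acts in very low density lipoprotein maturation, read 11.52 and 11.54. Of the 4, only Plin5 was beyond 0.17. Cidea and Cidec, the CIDE proteins of adipocytes and fatty liver, read 3.39 and 3.46, and 3.51 and 3.48, values near the lower end of the table, 2.49, in both pools. The 250 bases before the first of the annotated starts of Plin5, at chr17:56117549-56117798 on the minus strand, are shown for the largest difference in the coat, with NF-Y boxes at -224 and -62 in capitals.
Plin5: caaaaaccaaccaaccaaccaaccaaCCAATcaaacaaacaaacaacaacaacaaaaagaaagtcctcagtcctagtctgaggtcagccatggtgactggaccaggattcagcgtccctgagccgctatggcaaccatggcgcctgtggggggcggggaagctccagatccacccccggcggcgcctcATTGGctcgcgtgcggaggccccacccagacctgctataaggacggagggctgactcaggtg

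Among lipolysis genes an inhibitor was higher in Yap+/-, and the lipases were lower or differed little. Triglyceride is cleaved in turn by ATGL, hormone-sensitive lipase and monoglyceride lipase, ATGL being switched on by its co-activator and off by G0S2. G0s2, the inhibitor, read 9.19 in Yap+/+ and 9.87 in Yap+/-, 1.60-fold higher on its only probe set, and 0.785% of measured genes differed as much. Pnpla2, which encodes ATGL, read 8.02 and 8.10. Abhd5, the co-activator, read 7.86 and 7.63 on its brightest probe set but 7.31 and 7.39 on the next, so its direction is uncertain. Mgll, the monoglyceride lipase, was lower on all 3 measured probe sets, by -0.21, -0.29 and -0.43, the brightest reading 10.47 and 10.26. Lipe, hormone-sensitive lipase, read 6.40 and 6.32. Pnpla3, a droplet protein induced by lipogenic factors, and Hilpda, another inhibitor of ATGL, were under the minimum, at 5.36 and 5.24 for Pnpla3 and 5.66 in both pools for Hilpda. The 5 measured members had 3 lower and 2 higher, a median of -0.08 and a mean of 0.05. The stretch before the start of G0s2, at chr1:193273189-193273438 on the minus strand, is shown as that of the member with the largest positive difference, and it holds no NF-Y box.
G0s2: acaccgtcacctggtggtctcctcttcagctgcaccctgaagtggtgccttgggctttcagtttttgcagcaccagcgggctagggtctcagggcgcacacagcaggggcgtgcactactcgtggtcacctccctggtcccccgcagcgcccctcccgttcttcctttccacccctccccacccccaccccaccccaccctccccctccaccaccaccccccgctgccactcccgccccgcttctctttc

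**Figure D3:**
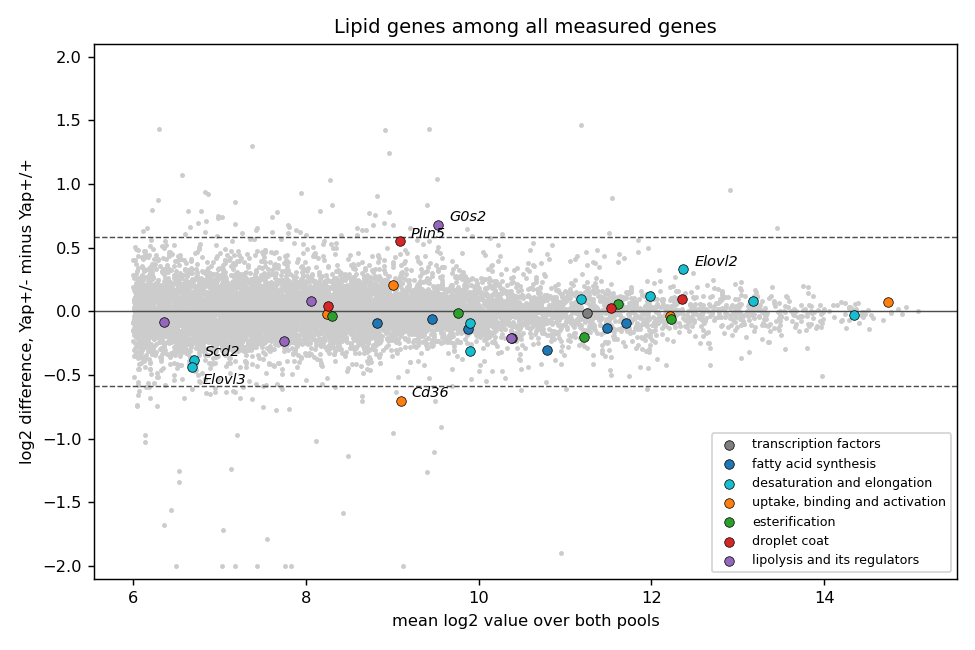
Log2 difference (Yap+/- minus Yap+/+) against the mean log2 value over both pools for 9299 measured genes (grey) and the 36 measured lipid genes (coloured by role); dashed lines mark 1.5-fold, and 7 genes beyond 2 on the vertical axis are drawn at its edge. Most lipid genes lie inside the grey cloud, G0s2 and Cd36 lie past the dashed lines, and Plin5, Elovl2, Scd2 and Elovl3 are the other members labelled.

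Set side by side on the brightest probe sets, fatty acid synthesis ranged from -0.30 to -0.06 and the droplet coat from 0.03 to 0.55. These ranges did not overlap, but of their genes only Fasn and Plin5 lay beyond the disagreement of probe sets, 0.17. Desaturation and elongation ranged from -0.44 to 0.33, uptake, binding and activation from -0.70 to 0.21, esterification from -0.20 to 0.06, and lipolysis from -0.23 to 0.68. Under the mean of all probe sets, Acacb was at 0.08, above Cideb at 0.03 and Plin3 at 0.04, so synthesis and coat then overlapped. With 1 pool a genotype the difference between roles could not be tested. Of 17 members with more than 1 measured probe set, 13 had all of them in the same direction, and Abhd5, Acsl3, Agpat3 and Dgat2 had them in both.

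Other genes of the pathway, outside the list, gave a like picture of small differences with a few larger ones. They too were chosen with earlier results of these data known, so they are no independent check. Of 19 measured regulators of lipogenesis, 10 were lower and 9 higher, with a median of -0.05. Thrsp, a lipogenic protein induced by thyroid hormone and sugar, was 1.52-fold lower, from 12.25 to 11.64, and lower on all 3 probe sets. Irs2, an insulin receptor substrate, was 1.48-fold lower. The bile acid-induced repressor SHP, from Nr0b2, was 1.79-fold higher. Genes that supply NADPH and carbon were lower in 12 of 13, beside 49.6% of all measured genes. Their median was -0.09, and 5 of the 13 lay beyond 0.17. Me1, the malic enzyme that provides NADPH for synthesis, was 1.37-fold lower and Slc25a11, a mitochondrial oxoglutarate carrier, 1.29-fold lower.

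Further genes of elongation, activation and binding were higher in 11 of 17, led by Fabp5 and Fabp2, beside 48.8% of all measured genes. Their median was 0.06, and 5 of the 17 lay beyond 0.17. Acsl4, an acyl-CoA synthetase for arachidonate, was 1.26-fold higher on its brightest probe set, but another measured one differed by -0.43. Of 19 other genes of glycerolipid synthesis, 10 were lower and 9 higher, with a median of -0.02. Besides Lpin1, the choline kinase Chka was 1.51-fold higher and higher on all 3 measured probe sets, whereas Gpat3, a glycerol-3-phosphate acyltransferase of the endoplasmic reticulum, was 1.70-fold lower, from 8.18 to 7.42. Chpt1, a choline phosphotransferase, was 1.26-fold lower. Lpin2, a relative of Lpin1, was 1.38-fold higher on its brightest probe set, although its 4 measured probe sets spanned -1.02 to 0.50. Other droplet proteins and lipases were lower in 18 of 24, beside 49.6% of all measured genes. Their median was -0.03, and 5 of the 24 lay beyond 0.17. Lpl, lipoprotein lipase, was 1.37-fold higher.

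**Figure D4:**
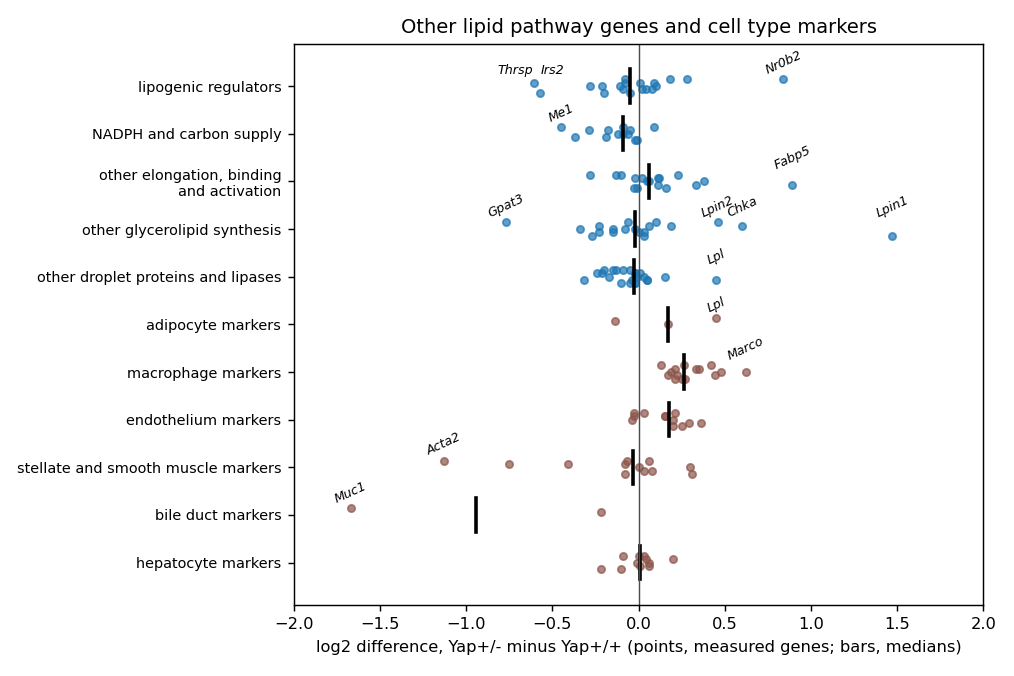
Log2 difference (Yap+/- minus Yap+/+) of measured genes in 5 further lipid pathway lists (blue) and 6 cell type marker lists (brown); each point is a gene and each black bar the median of its list. Macrophage markers lie to the right of 0 throughout, with a median of 0.26, and hepatocyte markers centre on 0.01, whereas Lpin1, at 1.47, lies furthest right among the lipid genes.

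Markers of the tissue and of other cell types were read on the same arrays. The 11 measured hepatocyte markers had means of 14.13 in both pools and a median difference of 0.01, from Tat at -0.22 to Hnf4a at 0.20. The other measured probe sets of Hnf4a differed by 0.35 and -0.28. Of the adipocyte markers 3 of 12 were measured, and the defining ones were not, with Adipoq at 3.41 and 3.37 and Lep at 3.45 in both pools, near the lower end of the table. Among the measured ones, Lpl was the highest at 0.45 and Slc2a4 the lowest at -0.14. Macrophage markers were led by Marco, 1.54-fold higher. In the endothelial list Fcgr2b was highest at 0.36, with its other probe sets between -0.14 and 0.08, and Oit3 lowest at -0.04. Of 12 stellate and smooth muscle markers 6 were lower, Acta2 most, by -1.13, and Pdgfrb was highest at 0.31. The second measured probe set of Pdgfrb differed by 0.00. Both measured bile duct markers were lower, Muc1 by -1.67 and Prom1 by -0.22. Muc1 read 7.19 in Yap+/+ and 5.51 in Yap+/-, so its mean reached the minimum only through Yap+/+. Krt19 and Anxa13, further duct markers with means under the minimum, read above 6 in Yap+/+ alone, at 6.73 against 4.83 and at 6.05 against 4.88, differences of -1.90 and -1.17. The other duct markers under the minimum differed less. Krt7, Epcam and Cftr were lower, with differences of -0.15, -0.11 and -0.14, and Sox9 was higher, by 0.26. What part these cells had in the differences of the lipid genes was not tested.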

How the data were processed

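Liver RNA of 2 pools, each of 5 mice, was labelled from the 3-prime end and read on 1 GeneChip array per genotype, per the labels' protocols. The deposited table holds log2 probe set values that the authors computed with RMA and Partek 6.5, per the submitters' processing notes, with no settings stated. It has 45101 probe sets with values from 2.49 to 15.2, and the sorted columns differ nowhere by more than 0.047. Quantile normalisation has this effect, and it would hide a difference in total RNA between the samples. Scanner files were not used here, and the number of arrays limits precision.

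Gene names came from the platform annotation, in which 34945 probe sets had exactly 1 symbol, 932 several, 9160 none listed and 64 were controls. The symbols of all 41 members were the same in a current RefSeq table. The difference of log2 values was described by size and by counts at 1.5-fold, with no test. Counting was tested on simulated data. Named were all members, of each pathway list up to 3 genes per direction with differences of at least 0.32, of each marker list the extreme gene in each direction, and Yap1. Some markers under the minimum were named too. The members and lists were chosen with earlier results of these data known. Pathway genes without a probe set of their own symbol were not analysed here. Alternatives changed the filter (none, or 7), the probe set (averaging them, or dropping those marked as shared between transcripts), the centring (on the median, or along a lowess curve), the threshold (2-fold) and the scale (64 added before the logarithm), or left out the largest member of a list. The software was pandas 2.3.3 with numpy 2.4.6 under Python 3.11.15, statsmodels 0.14.6 for lowess, and matplotlib 3.10.9.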

Additional observations from a re-analysis of the deposited data

How the results depend on the processing

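No paired analysis was possible because each genotype has 1 pool. Of 129 medians and counts recomputed under the alternatives, 122 stayed within 0.17 for a median or 1.5 times for a count, and did not take the opposite sign at 2 decimals. Among these, 2 medians came to 0.00 with only probe sets without a suffix, that of esterification from -0.04 and that of uptake, binding and activation from -0.02. The median of desaturation and elongation, -0.03, turned to 0.08 at a minimum of 7, to 0.02 with only probe sets without a suffix, and to 0.02 without its largest member. Without Cd36 the median of uptake, binding and activation, -0.02, became 0.03, and the count of members at least 1.5-fold lower became 0. At 2-fold the counts of members lower and higher were 0 and 0. Fatty acid synthesis kept a negative median, from -0.19 with the mean of all probe sets to -0.09 without its largest member, and the droplet coat a positive one, from 0.04 to 0.10. Of 239 values of single members under the alternatives, 4 moved by more than 0.17. The members past 1.5-fold, which were only Cd36 and G0s2, kept their sign. Some members with smaller differences did not. With the mean of all probe sets, Dgat2 went from 0.06 to -0.03 and Agpat3 from -0.01 to 0.07. Many of the 239 could not move, since a change of the filter leaves a member's value as it is and the median taken off was 0.00. All 4 that moved came with a change of probe set. With the mean of all probe sets, they were Acacb at 0.08 and Fabp4 at -0.12. With only probe sets without a suffix, they were Acss2 at -0.33 and Plin5 at 0.34. Background signals were not used here, so differences of genes near or under the minimum, and of Fabp1 and Scd1 near the top of the scale, are the least certain.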
